A study of Mus musculus with 24 samples.

Results

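Type I interferon-stimulated genes were followed in the mouse cerebellum as 9 named genes, Ifit1, Ifit3, Isg15, Irf7, Usp18, Oasl2, Bst2, Rtp4 and Ifi27l2a, out of 22911 gene symbols that could be attached to the probes of the array. The members were chosen as every probe whose transcript identifier belongs to a listed gene, which gave 11 probes. The genes were listed with earlier results of these data known, so their counts beside shares of all probes are descriptions. Each gene was represented by its brightest tested probe, and these 9 probes were well above background on all 24 arrays.

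Total RNA of the cerebellum was hybridised to 1-colour Agilent arrays at postnatal day 28. In the Derlin-1 line, the controls carried floxed Derlin-1 alleles, and the knockouts (KO) carried the same alleles with a Cre recombinase under the nestin promoter, which is active in the precursors of neurons and of the glia derived from neuroectoderm, but not of microglia, which come from the yolk sac. The Derlin-2 line was built in the same way on floxed Derlin-2 alleles, and all mice were C57BL/6. Both proteins sit in the membrane of the endoplasmic reticulum and act in the removal of misfolded proteins from it. Mice received daily intraperitoneal injections from postnatal day 14 to day 28, either of 4-phenylbutyrate (4PBA, a chemical chaperone that also inhibits histone deacetylases) at 200 mg/kg or of water as the vehicle. There were 12 groups of 2 arrays: control and KO, with and without 4PBA, in a Derlin-1 series labelled by numbers, in a Derlin-2 series labelled by numbers, and in a further Derlin-1 series labelled by the letters a and b. For the lettered arrays without 4PBA the sample names give no vehicle. The labels do not say whether the arrays of a group come from separate mice, so the p-values measure the spread between these samples, which may be technical.

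Each of the 3 series filled 1 slide of 8 arrays, and the lettered slide was scanned on another day. Array position on a slide followed the groups, so position and group cannot be told apart. Between 57.7% and 68.4% of spots were well above background and no spot was saturated. The number of arrays limits the precision. The only Derl1 probe did not separate the genotypes (log2 levels of 0.68 to 1.51 in the 8 Derlin-1 KO arrays and 1.31 to 1.8 in the 8 controls); where it lies relative to the deleted part is not known here, so it does not check the labels. Derl3, a gene of the same family, was higher in 7 of the 8 Derlin-1 KO arrays (-0.06 to 0.92) than in all 8 controls (-2.57 to -1.13), while 1 array, the lettered array labelled KO 4PBA b, stood at -1.73, among the controls. In the Derlin-2 line, a Derl2 level of 2.3 was read on the array labelled KO vehicle 1, above the 4 controls (1.96 to 2.14), and levels of 0.73 to 1.08 on the other 3 KO arrays. Its Derl3 level was -1.26, above those 4 controls (-2.47 to -2.15), as were the other 3 KO arrays (-1.4 to -0.01). Derl2 and Derl3 thus disagree on that array. Changes between groups that rest on either array are given with and without it.

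Type I interferons bind a receptor made of Ifnar1 and Ifnar2, whose kinases Jak1 and Tyk2 activate transcription factors. These join Irf9 in a complex that enters the nucleus and binds a DNA element, the interferon-stimulated response element (ISRE), in front of its target genes. In the brain, microglia, astrocytes, neurons and vessel cells can all respond, and microglia are major responders and carriers of innate immune sensors. In a whole-tissue RNA sample, fewer or more cells of a type and less or more RNA per cell cannot be told apart.

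Promoter sequences are shown first, with the ISRE core marked, because this is the textbook binding site of the interferon-activated complex and the choice of genes by name did not use it. RefSeq promoters (GRCm38.p6, 250 bases before to 50 after the start) were given for 6 of the 9 genes. The core, spelled GAAA, any 2 bases, then GAAA and searched on both strands, was found in 4 of the 6, in Isg15, Bst2, Ifit1 and Ifit3, and in 3.44% of all 32851 promoters of that length. Windows of 130 bases, from base -170 to base -41 relative to the start, are printed on the strand of the gene, with every match in capitals; the window was placed after the positions of the matches were seen.
Isg15 promoter, chr4:156200859-156200988, minus strand: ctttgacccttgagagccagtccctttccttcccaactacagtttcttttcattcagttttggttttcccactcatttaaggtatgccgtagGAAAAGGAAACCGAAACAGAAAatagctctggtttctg
Bst2 promoter, chr8:71537513-71537642, minus strand: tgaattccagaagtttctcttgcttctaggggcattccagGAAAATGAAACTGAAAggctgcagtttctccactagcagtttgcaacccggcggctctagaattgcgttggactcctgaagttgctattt
Ifit1 promoter, chr19:34640719-34640848, plus strand: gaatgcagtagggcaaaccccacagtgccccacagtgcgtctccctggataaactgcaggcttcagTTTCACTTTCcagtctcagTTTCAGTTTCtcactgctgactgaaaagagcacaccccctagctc
Ifit3 promoter, chr19:34583359-34583488, plus strand: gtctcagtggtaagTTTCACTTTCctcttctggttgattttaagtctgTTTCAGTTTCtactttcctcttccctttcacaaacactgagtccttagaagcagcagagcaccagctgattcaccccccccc
Irf7 promoter, chr7:141266465-141266594, minus strand: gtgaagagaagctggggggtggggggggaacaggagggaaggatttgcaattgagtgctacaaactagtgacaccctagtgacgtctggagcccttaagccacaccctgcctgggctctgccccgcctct
In Isg15, 3 overlapping matches ran from base -78 to base -57, and in Bst2, 2 overlapping matches ran from -130 to -115. Ifit1 (-104 to -95 and -85 to -76) and Ifit3 (-156 to -147 and -122 to -113) each held 2 separate matches, read from the opposite strand. Irf7 and Oasl2 had no match in their promoters. The letters TTCNNNGAA, the gamma-activated site, were found on either strand only in Bst2 of the 6 promoters, overlapping its ISRE core, and in 8.3% of all promoters. A match of letters is a description of the sequence and not a measured binding site.

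In the Derlin-1 knockout without 4PBA, 8 of the 9 genes rose: Irf7, Bst2, Usp18, Ifit3, Isg15, Oasl2, Ifit1 and Ifi27l2a. The changes ran from 1.06 to 1.95 on the log2 scale, with a median of 1.61, against a median of 0.01 over all probes. Rtp4, the ninth gene, was higher by 1.06 ± 0.33 (SE) and did not pass (adjusted p = 0.0793). The comparison, which asked what loss of Derlin-1 changes in the cerebellum, was made with limma within each slide and averaged over both Derlin-1 series with 2 arrays per group on each slide, and a probe was called at an adjusted p below 0.05. Of all probes tested, 4.94% were called in this comparison and 2.4% were called higher. All 9 genes had an unadjusted p below 0.05, as had 20.2% of probes. For all 9 genes, every KO array lay above every control array of its own series, a pattern shown by 9.27% of probes. The number that passed was not stable: 0 of 9 passed with only the Derlin-1 slides (0.711% of probes), 6 passed on the same slides with the series as an additive term (2.99%). Leaving out single arrays gave 0 without KO a (1.06%), 2 without KO vehicle 1, KO vehicle 2 or control a (1.99%, 1.64% and 1.67%), 3 without control vehicle 1 (2.95%), 4 without control vehicle 2 or control b (1.95% and 3.52%) and 9 without KO b (8.51%). Leaving out any 1 array of the other groups gave 7 to 9. The median change stayed between 1.28 and 1.94 when single arrays were left out.

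**Figure D1:**
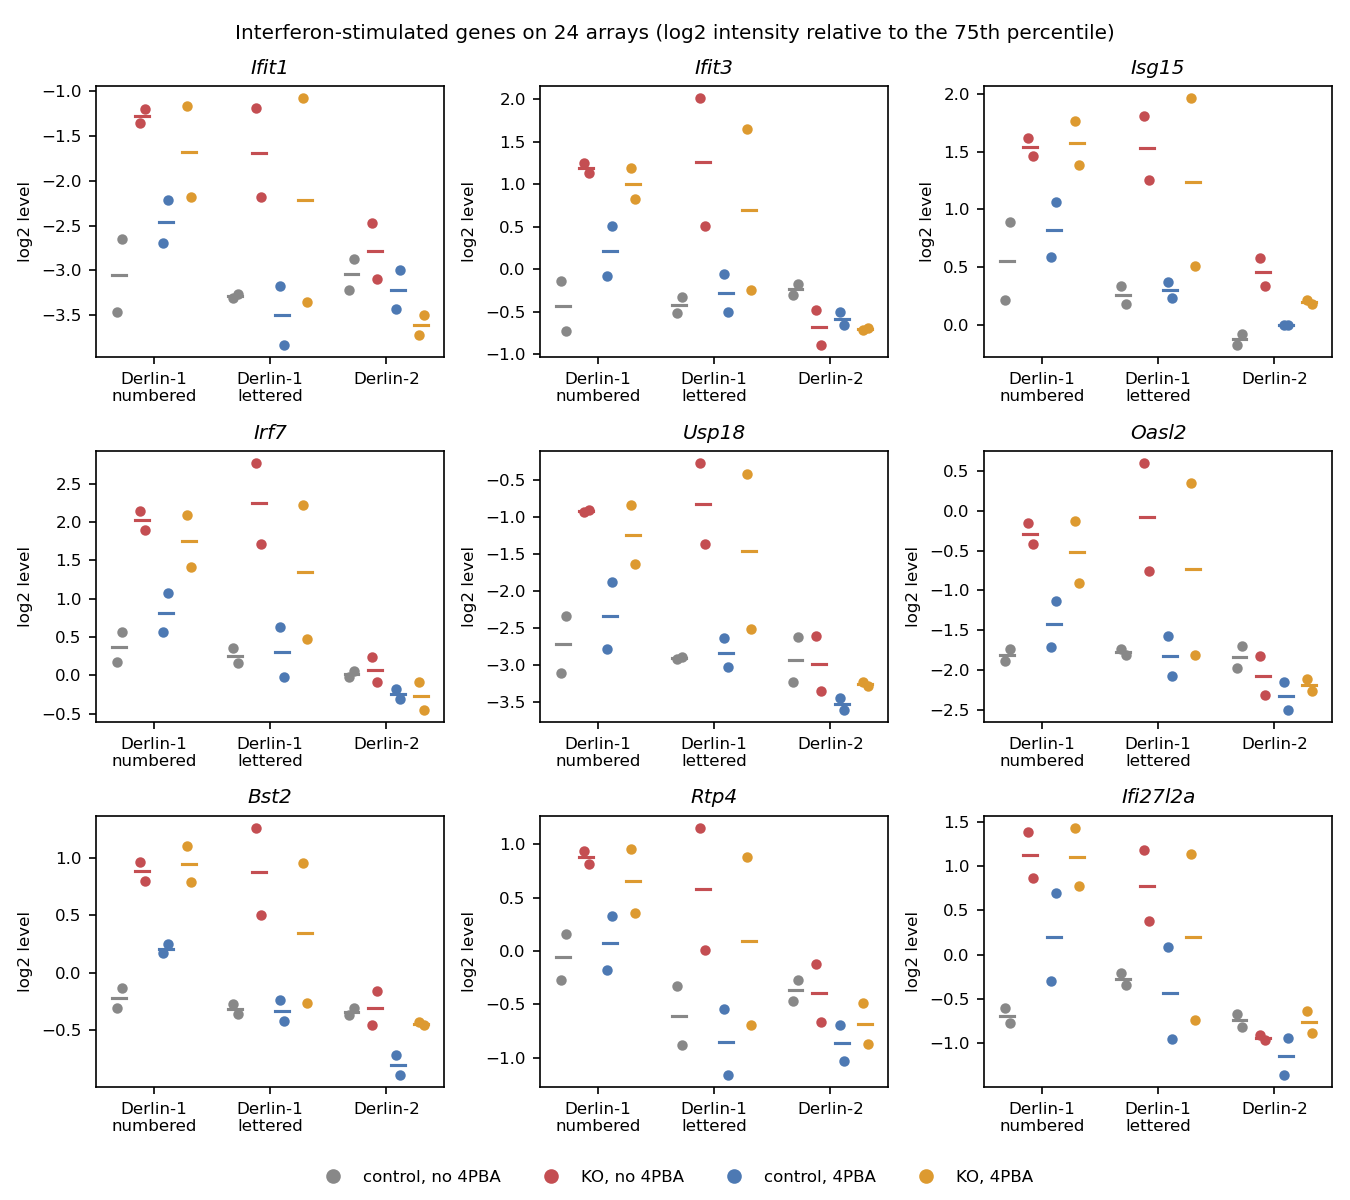
Log2 intensity relative to the 75th percentile of the array (y axis) of the 9 genes on all 24 arrays, by series and group (x axis); points are arrays and bars are means of 2 arrays. In every panel and in each Derlin-1 series, both KO arrays without 4PBA (red) lie above both controls without 4PBA (grey), and the lowest of these KO arrays lies above all 8 Derlin-2 arrays.

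Irf7, a transcription factor that amplifies interferon production, had the smallest adjusted p. Its levels, in log2 units relative to the 75th percentile of the array, were 0.17, 0.57, 0.35 and 0.16 in the 4 controls (vehicle 1, vehicle 2, a and b) and 2.15, 1.9, 2.77 and 1.72 in the 4 KO arrays in the same order. The lowest KO array lay above the highest control, so the groups did not overlap. The change was 1.82 ± 0.33 (SE), a 3.54-fold difference (95% interval 1.12 to 2.52 in log2, adjusted p = 0.0094). A second, dimmer Irf7 probe was well above background on 18 of 24 arrays and differed by 1.79 ± 0.54, with an adjusted p of 0.0758.

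Usp18, a protease that removes Isg15 from proteins and dampens signalling at the interferon receptor, changed most. Its control levels were -3.11, -2.34, -2.92 and -2.89, and its KO levels were -0.93, -0.9, -0.27 and -1.36. The groups did not overlap, and the numbered KO arrays lay close together while KO a and KO b were apart. The change was 1.95 ± 0.4 (3.86-fold, adjusted p = 0.0164). Isg15, the ubiquitin-like modifier on which Usp18 acts, had levels of 0.22, 0.89, 0.34 and 0.18 in controls and 1.62, 1.46, 1.81 and 1.25 in KO arrays. It rose by 1.13 ± 0.25 (2.19-fold, adjusted p = 0.0222), and control vehicle 2 was the control nearest to the KO arrays.

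Ifit3 and Ifit1 encode proteins of tetratricopeptide repeats, of which Ifit1 binds foreign RNA caps. Ifit3 had control levels of -0.14, -0.73, -0.52 and -0.33 and KO levels of 1.25, 1.13, 2.01 and 0.51, a change of 1.65 ± 0.36 (3.14-fold, adjusted p = 0.0208). Ifit1 had control levels of -3.46, -2.65, -3.31 and -3.26 and KO levels of -1.35, -1.2, -1.19 and -2.18, a change of 1.69 ± 0.41 (3.23-fold, adjusted p = 0.0314). In both genes KO b was the lowest KO array and still above the controls.

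Oasl2, a relative of the oligoadenylate synthetases, had control levels of -1.89, -1.73, -1.74 and -1.81 and KO levels of -0.15, -0.42, 0.6 and -0.75. The controls spanned less than the KO arrays, and the change was 1.61 ± 0.39 (3.06-fold, adjusted p = 0.0305). Bst2, or tetherin, which holds budding virus particles at the cell surface, had control levels of -0.31, -0.13, -0.27 and -0.36 and KO levels of 0.97, 0.8, 1.26 and 0.5. It rose by 1.15 ± 0.21 (2.22-fold, adjusted p = 0.011), with the smallest standard error of the 9 genes.

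Ifi27l2a, a small interferon-induced membrane protein gene, had control levels of -0.61, -0.78, -0.21 and -0.34 and KO levels of 1.39, 0.87, 1.18 and 0.38, a change of 1.44 ± 0.36 (2.71-fold, adjusted p = 0.0381). Its other probe, for another transcript, was well above background on 0 of 24 arrays and was not tested. Rtp4, a receptor transport protein gene, had control levels of -0.27, 0.16, -0.33 and -0.88 and KO levels of 0.94, 0.82, 1.15 and 0.01. Here KO b lay below control vehicle 2 of the other slide, though above both controls of its own.

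The Derlin-1 series were also read apart. The median change was 1.62 in the numbered series and 1.6 in the lettered series, all 9 genes were higher in each, and 8 of 9 had an unadjusted p below 0.05 in each (9.93% and 17.1% of probes). No gene passed within a single series, where the lowest adjusted p was 0.223 (numbered) and 0.0616 (lettered), and the backgrounds were 0.0236% and 0.656% of probes called. The difference between the series had a median of 0.18, and 0 of 9 genes were called by limma (0 at an unadjusted p below 0.05; backgrounds 0.0131% and 3.45% of probes). That median was -0.33 without KO a and 0.81 without KO b, so its sign and size rest on single arrays. Ifi27l2a differed most between them, with 1.82 ± 0.52 on the numbered arrays and 1.05 ± 0.52 on the lettered ones (difference -0.77 ± 0.73, adjusted p = 0.968).

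**Figure D2:**
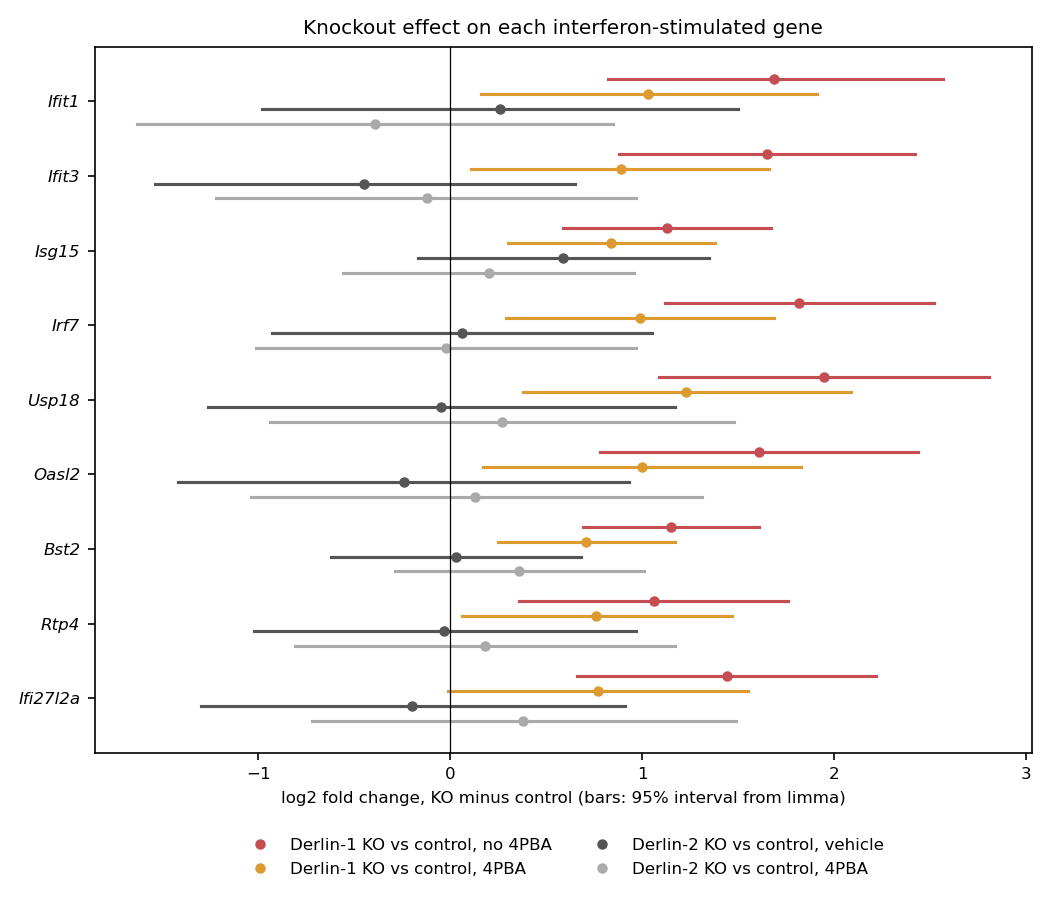
Log2 fold change of KO minus control (x axis) for the 9 genes (y axis) in 4 comparisons; points are limma estimates and bars their 95% intervals. Derlin-1 estimates without 4PBA lie between 1.06 and 1.95, those with 4PBA between 0.71 and 1.23, and the intervals of all Derlin-2 estimates include 0.

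With 4PBA, all 9 genes were higher in the Derlin-1 knockout than in 4PBA-treated controls, by 0.71 to 1.23 with a median of 0.89, but 0 of 9 were called by limma, against 0.0604% of probes. An unadjusted p below 0.05 was found for 8 of 9, against 9.89% of probes. Within the numbered series the median was 0.79 (0 of 9 called, 0.118% of probes; 1 of 9 at an unadjusted p below 0.05, 8.98% of probes), and within the lettered series 0.98, or 1.93 without KO 4PBA b (0 of 9 called, 0.0131% of probes; 5 of 9 at an unadjusted p below 0.05, 2.46% of probes). The largest estimate was that of Usp18, at 1.23 ± 0.4 (adjusted p = 0.328), and the lowest adjusted p that of Isg15 (0.84 ± 0.25, adjusted p = 0.286). This count turned on 1 array, that labelled KO 4PBA b of the lettered series. Without it, 7 of 9 genes passed (2.7% of probes called), and the median change was 1.36; without KO 4PBA a it was 0.46. In the fit without KO 4PBA b, Usp18 was at 1.76, Irf7 at 1.43, Bst2 at 1.02, Isg15 at 1.2, Rtp4 at 1.16 and Ifi27l2a at 1.24.

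The arrays show the split directly. Irf7 stood at 0.56, 1.08, 0.63 and -0.02 in the 4PBA controls (1, 2, a and b) and at 2.09, 1.42, 2.23 and 0.48 in the 4PBA knockouts. Usp18 stood at -2.79, -1.88, -2.64 and -3.03 in the controls and at -0.84, -1.64, -0.41 and -2.51 in the knockouts. In all 9 genes the 3 other KO arrays exceeded both 4PBA controls of their own series, as in 9.07% of probes. KO 4PBA b lay below the higher lettered control in 7 of 9, as in 75.9% of probes. With all 4 KO arrays, 2 of 9 genes had every KO array above every control of its series, against 2.17% of probes. KO 4PBA b was also the array whose Derl3 level was at that of controls.

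A difference between arrays with and without 4PBA was not detected in either genotype of the Derlin-1 line. In controls the 9 genes differed by -0.06 to 0.4 (median 0.21, or 0.08 to 0.33 over single arrays left out, lowest without control 4PBA 2), and in knockouts by -0.58 to -0.13 (median -0.37). In each, 0 of 9 genes were called by limma and 0 had an unadjusted p below 0.05 (0.0341% and 0.0525% of probes were called, and 2.28% and 5.43% had an unadjusted p below 0.05). By series, the median in controls was 0.43 (numbered) and -0.01 (lettered), and in knockouts -0.22 and -0.55 (0.39 without KO 4PBA b). The intervals were wide: the change of Irf7 in knockouts, -0.58, had a 95% interval of -1.28 to 0.12. Without KO 4PBA b the median in knockouts was 0.1, so that its sign turned; it was -0.1 without KO a, -0.71 without KO b and -0.84 without KO 4PBA a. The difference of the 4PBA effect between knockouts and controls had a median of -0.66, with 0 of 9 called by limma (0 at an unadjusted p below 0.05; backgrounds 0.0315% and 2.28%). That median was -0.13 without KO 4PBA b and -1.15 without KO 4PBA a. The knockout changes with and without 4PBA are therefore not shown to differ.

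In the Derlin-2 line, none of the 9 genes passed the test in limma under either injection. With vehicle the changes ran from -0.45 (Ifit3, SE 0.51) to 0.59 (Isg15, SE 0.35), with a median of -0.03, 4 genes higher and 5 lower. With 4PBA they ran from -0.39 (Ifit1) to 0.38 (Ifi27l2a), with a median of 0.18, which was 0.01 without control 4PBA 2 and 0.06 without KO 4PBA 1. In both, 0 of 9 were called by limma and 0 had an unadjusted p below 0.05 (0.121% and 0.165% of probes were called, and 6.94% and 4.98% had an unadjusted p below 0.05). The 95% interval for Irf7 with vehicle was -0.93 to 1.05, so a change within that range cannot be told from none. KO vehicle 1 had a control-like Derl2 level but a Derl3 level above the controls. When it was left out, the changes with vehicle ran from -0.65 (Ifit3) to 0.47 (Isg15) with Irf7 at -0.1, and the median was -0.23. Without KO vehicle 2 it was 0.22, so the sign rests on single arrays.

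Across the 8 Derlin-2 arrays the level of Isg15 ran from -0.17 to 0.58 with a median of 0.09. Its KO vehicle arrays, at 0.58 and 0.34, lay above the control vehicle arrays, at -0.17 and -0.08, and it was the only gene of the 9 with that order (23.6% of probes). Ifit3 and Ifi27l2a had the opposite order (23.6% of probes), Ifit3 with -0.48 and -0.89 in KO arrays and -0.3 and -0.18 in controls. With 4PBA, both KO arrays lay above both controls in 4 of 9 genes and below them in 2 of 9 (16.5% and 18.4% of probes). In 7 of 9 genes both Derlin-2 controls with 4PBA lay below both with vehicle (30.9% of probes), with a median change of -0.41, and 0 of 9 were called by limma (0 at an unadjusted p below 0.05, backgrounds 0.179% and 6.98%). In Derlin-2 knockouts the change with 4PBA had a median of -0.26, and 0 of 9 were called by limma (0 at an unadjusted p below 0.05, backgrounds 0.144% and 8.65%); without KO vehicle 1 that median was -0.01.

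The lowest Derlin-1 KO array without 4PBA lay above every Derlin-2 array in 9 of 9 genes and in 6.45% of probes, though the lines were on different slides. Set against each other within their slides, the knockout effect was larger in the Derlin-1 than in the Derlin-2 line by 0.54 to 2.1, with a median of 1.64. None of the 9 differences passed in limma, while 6 had an unadjusted p below 0.05 (backgrounds 0.0682% and 10.9% of probes). Without KO vehicle 1 of the Derlin-2 line the median was 1.74, with 0 of 9 called (0.336% of probes) and again 6 at an unadjusted p below 0.05. The largest was that of Ifit3, at 2.1 ± 0.62 (95% interval 0.76 to 3.44, adjusted p = 0.256), and the smallest that of Isg15, at 0.54 ± 0.43 (adjusted p = 0.712).

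Ranked by mean level, the 4 Derlin-1 KO groups were the top 4 of 12 in each of the 9 genes, as in 2.39% of probes. For Irf7 the order was lettered KO (2.24 ± 0.74, SD, n = 2), numbered KO with vehicle (2.03 ± 0.18), numbered KO with 4PBA (1.76 ± 0.48) and lettered KO with 4PBA (1.36 ± 1.24, or 2.23 without KO 4PBA b), each overlapping the next; the top 4 were these groups in 9 of 9 genes also without that array and Derlin-2 KO vehicle 1. Then came the numbered controls with 4PBA (0.82 ± 0.37), numbered controls with vehicle (0.37 ± 0.28), lettered controls with 4PBA (0.31 ± 0.46) and lettered controls (0.26 ± 0.14). The Derlin-2 groups were lowest, from 0.07 ± 0.23 to -0.27 ± 0.25. Neighbours in the order overlapped throughout, other than the Derlin-2 controls with vehicle (0.02 ± 0.04), which lay above the next group, the Derlin-2 controls with 4PBA (-0.25 ± 0.09). The overlap of KO with control groups came from KO 4PBA b (0.48): without it, the lowest Derlin-1 KO array was at 1.42 and the highest control at 1.08.

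**Figure D3:**
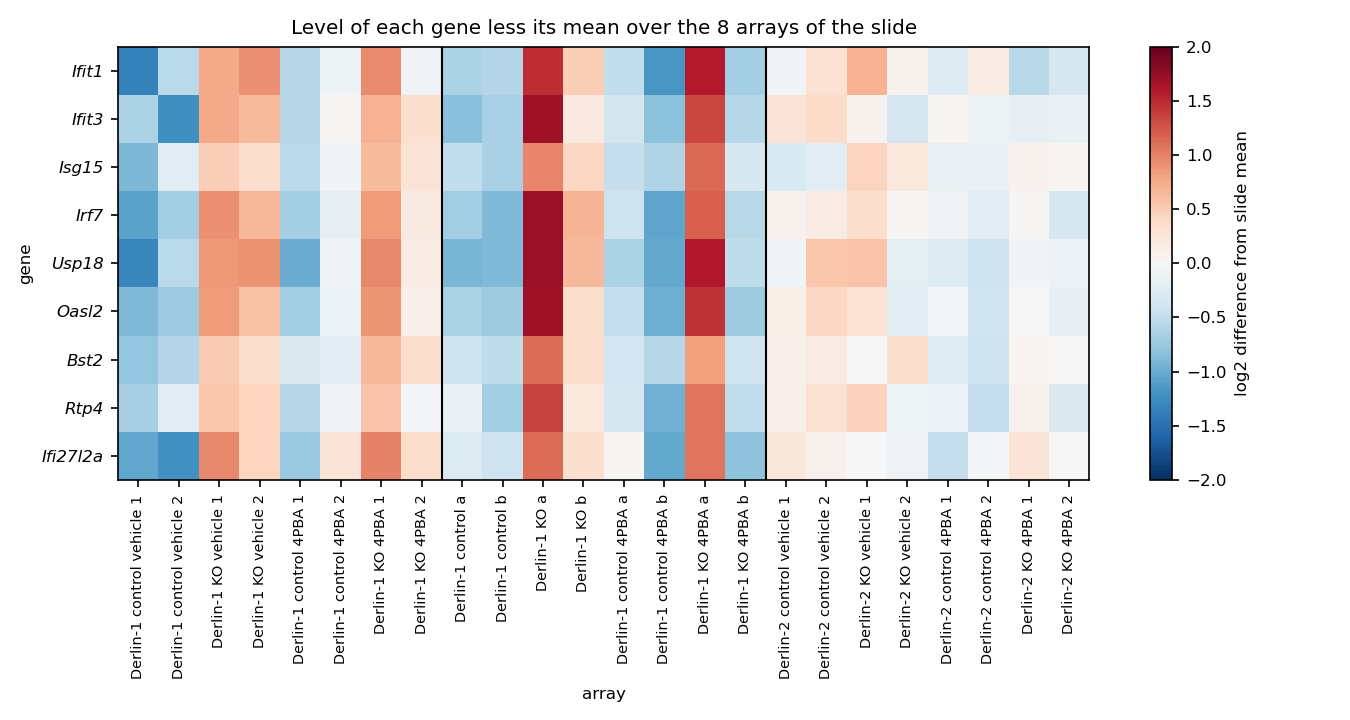
Level of each of the 9 genes (rows) on each of the 24 arrays (columns, grouped by slide, lines between slides) less the mean of the slide's 8 arrays; the colour scale is in log2 units. KO a and KO 4PBA a are the reddest columns, KO b and KO 4PBA 2 are paler, and KO 4PBA b is blue like the controls beside it.

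The 9 genes also moved together from array to array. After the mean of each slide was taken off, the pairwise correlations over the 24 arrays ran from 0.84 to 0.98 with a median of 0.92 (0.85 to 0.98 over 22 arrays, without KO 4PBA b and Derlin-2 KO vehicle 1); these arrays share genotypes and slides, so the values are descriptions. Within the lettered knockouts, KO a exceeded KO b in 9 of 9 genes, both without and with 4PBA (25.9% of probes), and KO a or KO 4PBA a was the highest of the 24 arrays in 8 of 9 (15.2% of probes). In the numbered knockouts with 4PBA, array 2 was below array 1 in 9 of 9 (53.7% of probes). Among the 12 controls, the array labelled Derlin-1 control 4PBA 2 was the highest in 9 of 9 genes (8.79% of probes). Between the numbered controls with vehicle the genes did not share a direction: Irf7 went from 0.17 to 0.57 and Ifit3 from -0.14 to -0.73.

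The genes most like the mean of the 9, by correlation over the 24 arrays less slide means among 14257 genes measured on all arrays, were Ddx58 (0.97), Uba7, Irgm1, Lgals3bp, Cd52 and Igtp (0.96 each), and Aif1, Fcer1g, Cyba and Oas1f (0.95 each). Ddx58 encodes the RNA sensor RIG-I, Uba7 the enzyme that activates Isg15 for conjugation, and Irgm1 and Igtp are interferon-inducible GTPases. Aif1 encodes Iba1, a microglial marker, Fcer1g the gamma chain of Fc receptors and Cyba a subunit of the phagocyte NADPH oxidase. Over the 22 arrays, 9 of these 10 were again among the 10 most alike. In the Derlin-1 knockout without 4PBA these 10 genes changed by 0.67 (Uba7) to 1.91 (Cd52). The arrays of this comparison were among those used to pick them, so the direction follows in part from the choice.

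The rest of the pathway was read from fixed lists. Of the ligands and receptors, 10 of 16 listed genes could be tested and 0 were called by limma in the Derlin-1 knockout without 4PBA, with a median change of -0.08; with 4.94% of all probes called, a count of 0 of 10 lies near the background. The probes of Ifnb1, Ifna4, Ifne, Ifnk and Ifng were well above background on 0 of 24 arrays. The receptor chains Ifnar1 and Ifnar2 changed by 0.01 ± 0.18 and -0.07 ± 0.1. The largest changes among the tested members, none of which passed, were Ifna5 at -0.25 ± 0.3 (adjusted p = 0.726) and Il10rb, a chain of the interferon lambda receptor, at 0.24 ± 0.09 (adjusted p = 0.176). Il10rb was the one with an unadjusted p below 0.05 (0.0262), against 20.2% of all probes.

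Among genes of signal transduction, Irf8, a factor of microglia and other myeloid cells, rose by 1.22 ± 0.25 (adjusted p = 0.0153). Irf9, the DNA-binding partner in the interferon-activated complex, rose by 0.9 ± 0.19 (adjusted p = 0.02). The kinases Jak1 (0.02 ± 0.06) and Tyk2 (0.04 ± 0.11) and Stat2 (-0.04 ± 0.12) did not pass. Of 18 tested sensors and inducers, 3 rose and 0 fell (median 0.2; 2.4% of all probes were called higher and 4.94% called in this comparison): Ddx58 (0.99 ± 0.24, adjusted p = 0.0324), Irf5 (0.98 ± 0.17, adjusted p = 0.00848) and Cgas, the sensor of cytosolic DNA (0.64 ± 0.16, adjusted p = 0.0366). Of 10 brakes on the pathway, 1 rose (median 0), the phosphatase gene Ptpn6, by 1.24 ± 0.23 (adjusted p = 0.0101). Trex1, which degrades cytosolic DNA, changed by 0 ± 0.1, and Socs3, an inhibitor of cytokine signalling, by 0.51 ± 0.24 (adjusted p = 0.252); neither passed.

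Of 38 other interferon-stimulated genes tested, 18 rose and 0 fell in the Derlin-1 knockout without 4PBA, with a median change of 0.72. For this list and the GTPases below, the background is 2.4% of all probes called higher and 4.94% called. The largest were Ifi204 (1.82 ± 0.49, adjusted p = 0.0483), Oasl1 (1.81 ± 0.4), Slfn8 (1.63 ± 0.42), Ifit3b (1.62 ± 0.4), Lgals3bp (1.49 ± 0.29) and Herc6 (1.45 ± 0.37). Ifit3b is a close copy of Ifit3, so signal may be shared between their probes. Of 13 tested GTPases that interferon gamma induces most strongly, 3 rose and 1 fell (median 0.76): Igtp (1.4 ± 0.3), Irgm1 (1.19 ± 0.25) and Gbp6 (1.09 ± 0.28) were higher, and Gbp9 fell by 0.67 (SE 0.15, adjusted p = 0.0261). In these 6 lists 0 genes were called by limma in the Derlin-1 knockout with 4PBA or in the Derlin-2 knockout under either injection. As 0.0604%, 0.121% (vehicle) and 0.165% (4PBA) of all probes were called there, these counts of 0 lie near the background. The 4PBA counts rest on KO 4PBA b: without it, 14 of 38 other interferon-stimulated genes, 4 of 18 sensors, 1 of 10 brakes and 5 of 13 GTPases rose, 1 GTPase fell, and 0 of 10 ligands and receptors were called (2.7% of probes). Without KO vehicle 1 of the Derlin-2 line the counts with vehicle were again 0. The counts without 4PBA also moved with the arrays and settings. The ranges were narrowest for the ligands and receptors and the brakes, which had only 0 and 1 calls to begin with. Over single arrays left out, 0 to 26 other interferon-stimulated genes, 0 to 9 GTPases, 1 to 5 sensors, 0 to 2 brakes and 0 to 1 ligands and receptors passed; without KO a, 1 sensor passed and 0 genes of the others. The highest counts were, for other interferon-stimulated genes, without KO 4PBA a or b and, for GTPases and sensors, without KO b. Over the processing settings the ranges were 0 to 22, 0 to 9, 0 to 5, 0 to 2 and 0, with 0 in all these lists for the numbered series alone.

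**Figure D4:**
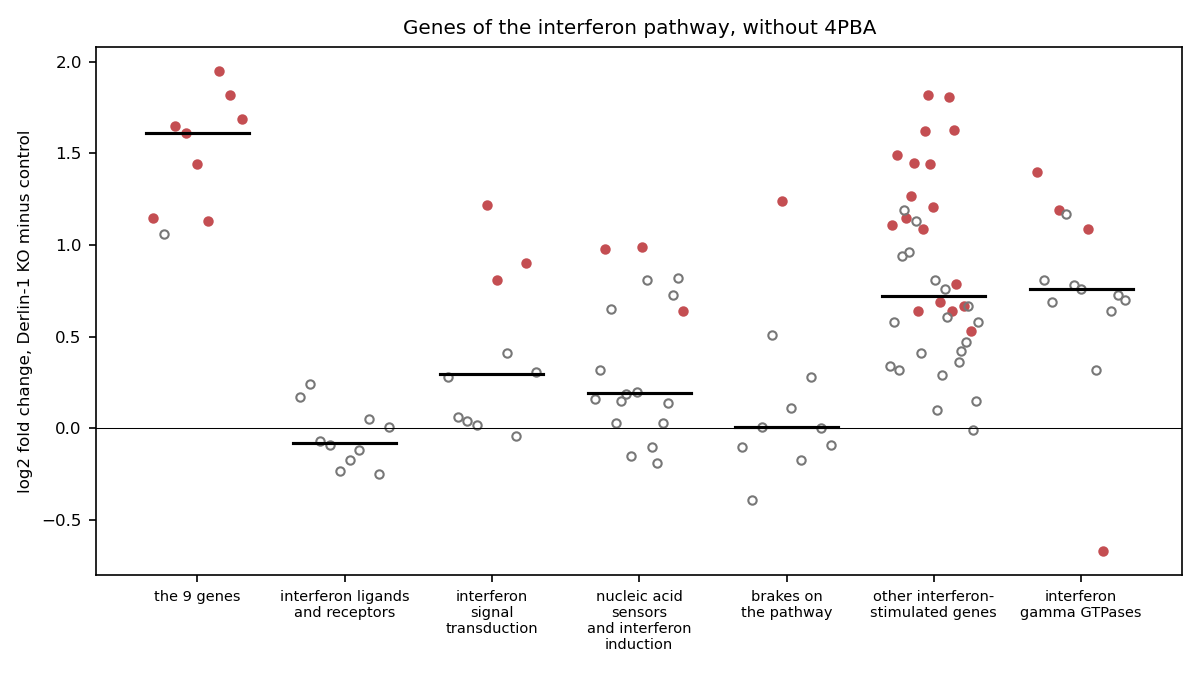
Log2 fold change in the Derlin-1 KO without 4PBA (y axis) of the 9 genes and of the genes in 6 pathway lists (x axis); filled red points passed at an adjusted p below 0.05, open points did not, and bars are medians. The ligands and receptors lie between -0.25 and 0.24, and the other interferon-stimulated genes reach 1.82.

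The ISRE core was also counted across the tested genes with a promoter in the table. Of 431 genes called higher in the Derlin-1 knockout without 4PBA, 34 (7.89%) had a match, among them the 4 listed above, compared with 9 of 411 genes called lower (2.19%) and 500 of all 13341 (3.75%). These shares are descriptions of gene lists chosen by this comparison and were not tested.

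Markers of microglia moved with the 9 genes. Of 10 markers, 8 rose in the Derlin-1 knockout without 4PBA (median 1.43; 2.4% of all probes were called higher and 4.94% called), with Trem2 (1.77 ± 0.28), Tyrobp (1.49 ± 0.25) and Aif1 (1.49 ± 0.23) changing most, while P2ry12 (0.23 ± 0.2, adjusted p = 0.581) and Tmem119 (0.28 ± 0.11, adjusted p = 0.142), both markers of homeostatic microglia, did not pass. All 10 were well above background on all 24 arrays. Their summed linear level, relative to the 75th percentile, was 19.9 to 25.6 in the 4 controls and 43.5 to 51.2 in the 4 KO arrays, against 5.69 to 7.21 and 12 to 24 for the 9 interferon-stimulated genes. In the Derlin-2 line the sums were 17.7 to 22.6 and 4.37 to 6.19, and on KO 4PBA b they were 19.1 and 6.27. The part of the microglial signal in the result was not tested.

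**Figure D5:**
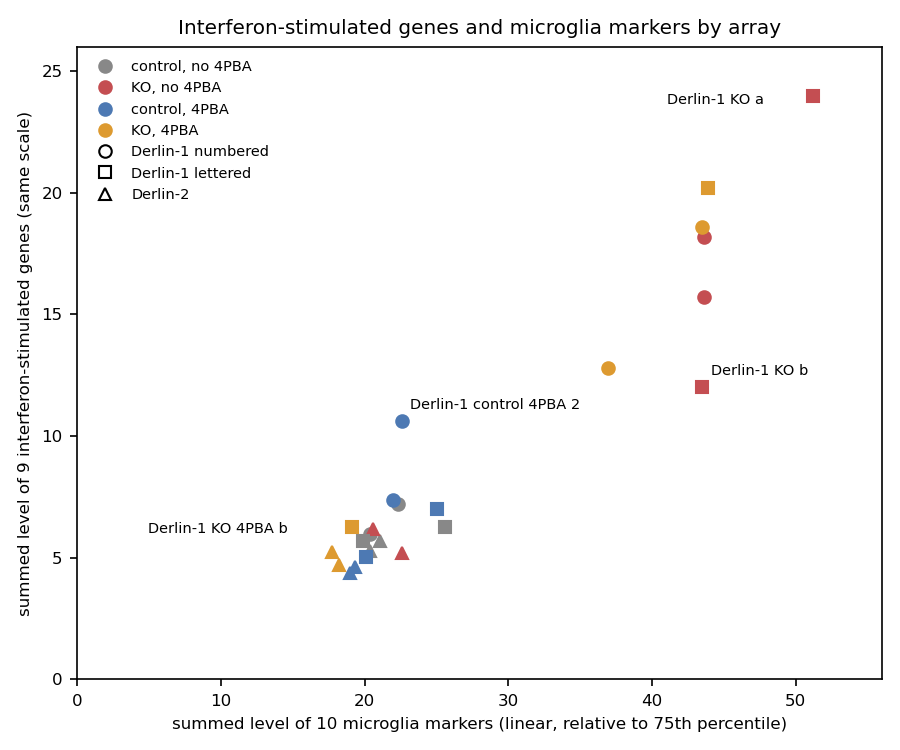
Summed linear level of the 9 interferon-stimulated genes (y axis) against that of 10 microglia markers (x axis), each relative to the 75th percentile, for the 24 arrays; colour gives genotype and injection and shape the series. KO b has a microglia sum of 43.5 with 12 for the interferon-stimulated genes, and control 4PBA 2 has 22.6 with 10.6.

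The sums were not in a fixed ratio. The 4 KO arrays without 4PBA had microglia sums of 43.6, 43.6, 51.2 and 43.5 (vehicle 1, vehicle 2, a and b) with sums of 18.2, 15.7, 24 and 12 for the 9 genes. Control 4PBA 2 had 10.6 for the 9 genes at a microglia sum of 22.6, close to the 22 of control 4PBA 1, whose 9 genes summed to 7.36. Of other cell types, 2 of 5 tested markers of border macrophages and monocytes rose, Cd163 (1.19 ± 0.24) and Lyve1 (0.83 ± 0.18), while Ccr2 was well above background on 0 arrays. Of 5 tested T, NK and B cell markers 0 rose and 1 fell, Klrb1c by 0.47, and Cd8a and Ms4a1 were on 0 arrays. Among 4 markers of plasmacytoid dendritic cells, the one that rose was Bst2 itself. The astrocyte list had 1 of 8 higher, Gfap (1.24 ± 0.18). The granule neuron list, the most abundant neurons of the tissue, had 2 of 8 lower, Gabra6 (-0.76 ± 0.15) and Neurod1 (-0.68 ± 0.12). No marker of endothelial cells (7), oligodendrocytes (7), Purkinje cells (8) or ependyma and choroid plexus (4) was called. Of all probes, 4.94% were called in this comparison and 2.4% called higher, so counts of 0 in lists this short lie near the background. The ependyma and choroid plexus sum ran from 13.1 to 209 in the 4 controls and from 3.15 to 345 in the 4 KO arrays (median change -0.69), and its part in the results was not tested. Of these markers, 8 of 8 for granule neurons and 8 of 8 for Purkinje cells were well above background on all 24 arrays.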

How the data were processed

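RNA of 24 arrays was read from Agilent scanner files. The authors' deposited intensity values are processed signals background-corrected per the file headers, made with Agilent Feature Extraction 10.7.1.1 per the submitters' processing notes; only the promoters carry coordinates, those of RefSeq on GRCm38.p6. The authors' deposited table of values (median 50.1 to 81.1 per array) equalled the processed signal within 1.74e-06 on the log2 scale for probes with a single spot, where its scale is thus linear intensity with no centring; probes with several spots were not compared. The log2 of each signal less the array's 75th percentile (890 to 1169) was taken, outlier-flagged spots were left out and spots of 1 probe averaged. Of 56605 probes, 32994 had 1 symbol through RefSeq accessions. Probes with every unflagged spot well above background on each array of 1 group or more (38114) were tested; this reading of the filter was set after values had been seen. limma 3.58.1 in R 4.3.3 fitted 12 group means (12 residual degrees of freedom), two-sided, with Benjamini-Hochberg adjustment over all probes tested; the code was tested on simulated data. Named were all members, up to 6 called genes per list by size (or the 2 largest where fewer than 2 passed; Ifnar1, Ifnar2, Jak1, Tyk2, Stat2, Trex1 and the markers were added by role after values were seen) and the 10 genes most alike. Members and lists were chosen with earlier results of these data known. Alternatives changed background correction (on median spot signals), scaling, filter, probes, flags, values, fit and arrays. Replicate numbers are not known to pair arrays. Of the signal transduction list, the count of calls and 1 further gene are not reported here.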

Additional observations from a re-analysis of the deposited data

How the results depend on the processing

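The count of 8 of 9 genes in the Derlin-1 knockout without 4PBA was 5 with no filter on dim probes (1.84% of all probes called, against 4.94%), 0 with only the arrays of the slides compared (0.711%), 0 with the numbered series alone (0.0236%) and 0 with the lettered series alone (0.656%), and 6 to 9 under the other 9 settings. Leaving out single arrays gave 0 to 9. With 4PBA the count was 0 under every such setting and 0 to 7 when single arrays were left out, the 7 without KO 4PBA b. No direction of a called value reversed. With a replicate block the count was 9; the block changed no other comparison's count of 0, and same-numbered arrays correlated from -0.21 to 0.65, so not every pair was alike and the pairing is not known; array a had the higher mean of the 9 genes in all 4 lettered groups. With scaling to the median of each array, the median change over all probes was -0.11, against 0.01 in the main fit (7 of 9 genes called, median change 1.49). Normexp gave 9 genes and a median of 1.31. The cause of these moves was not tested, other than that fits of fewer arrays have fewer degrees of freedom. Signal over background limits the second probes of Irf7 and Ifi27l2a.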

Other observations

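The array labelled Derlin-1 KO a had the lowest Derl1 level of the 24 arrays (0.68) together with the highest sum of the 9 interferon-stimulated genes (24) and of the microglia markers (51.2). The array labelled Derlin-1 KO b had the highest Derl3 level (0.92) with the lowest sum of the 9 genes (12) among the 4 Derlin-1 KO arrays without 4PBA. In 7 of 9 genes that array, KO b, lay above all 12 controls, as in 10.6% of probes. In the Derlin-2 line, KO vehicle 2, with a Derl2 level of 1.08, had a Derl3 level of -0.01, near those of Derlin-1 knockouts, with a sum of 5.2 for the 9 genes, within the range of the Derlin-2 controls (4.37 to 5.67).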
